A study of Mus musculus with 6 samples.

Results

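The genes described here encode the complement and coagulation proteins of blood plasma that the liver makes. They were chosen by name, as 43 mouse symbols, and 42 of them had a row among the 41388 genes of the count table; the remaining one, Klkb1, was not analysed here. Of these 42, 21 belong to complement and 21 to coagulation, fibrinolysis and their inhibitors. Messenger RNA was measured by bulk sequencing in livers of BALB/c mice with fibrosis caused by 5 weeks of carbon tetrachloride (CCl4), a toxin that kills hepatocytes around the central veins. In 3 libraries, labelled Al/NP high and called AL/NP here, the mice had received a nanoparticle form of the bisphosphonate alendronate at 4 mg/kg, in 2 injections per week over the last 2 weeks. The 3 control libraries are labelled untreated and fibrotic control, so all 6 livers shared the strain, the toxin and the fibrosis; the dosing text is repeated on the controls' labels, and their titles decide here. The series title calls the particles pH-degradable nanogels and names macrophages as what they act on. No healthy liver and no empty nanogel was among the samples, and whether controls got any injection is not given, so drug, carrier and injection cannot be told apart. Age and sex are not given in the labels, and they do not state that each replicate is a separate animal, so p-values measure the spread between these samples only.

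Complement is a cascade of plasma proteases that tags microbes and dying cells and can open pores in membranes. It starts through the classical pathway (C1 on antibody), the lectin pathway (mannose-binding lectins with MASP proteases) or the alternative pathway, and all of these meet at C3. Coagulation is a second protease cascade, which ends when thrombin cuts fibrinogen into fibrin; antithrombin and protein C restrain it and plasmin dissolves the clot. Hepatocytes are the main source of both sets of proteins, several of which, such as fibrinogen and C3, are known to be made in larger amounts in the acute phase response to inflammatory cytokines.

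Library totals ranged from 30554483 to 39838428 counts, and levels are given in CPM, read counts scaled to one common library total after TMM, edgeR's correction for library composition. The liver marker Alb measured 36814 to 43309 CPM with AL/NP and 44091 to 53586 CPM in controls. Mitochondrially encoded genes, counted as those with symbols that begin with mt-, took 12% to 17.0% of counts in AL/NP libraries. In controls they took 16.2% to 26.7%, and control replicate 3 had the highest share. Its TMM factor of 0.809 lay below the range of 0.937 to 1.13 that the remaining 5 libraries spanned. Because this library stands apart, several results that rest on it are given with and without it.

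Members of the set took 2.63%, 2.76% and 2.86% of all counts in AL/NP replicates 1 to 3, against 2.24%, 1.75% and 1.51% in the controls. Without mitochondrially encoded genes these shares were 3.16%, 3.22% and 3.25%, against 2.67%, 2.18% and 2.07%. Only symbols that begin with mt- were left out, so any mitochondrial copies under other symbols stayed in. Gm10925, Gm28661, Gm28437 and Gm29216, also among the 10 most abundant genes, were kept, with log2 fold changes from -0.70 to -0.62. In both forms every AL/NP library lay above every control. C3 alone held 24.0%, 23.1% and 21.8% of member counts with AL/NP and 18.8%, 15.2% and 14.0% in controls; without C3 the summed level was 21319, 19446 and 19824 CPM against 17089, 14791 and 16118 CPM, still without overlap. In bulk RNA, fewer cells of a type and less RNA per cell cannot be told apart, so these levels do not show in which cells the difference lay.

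The edgeR quasi-likelihood test, adjusted by Benjamini-Hochberg over 15939 genes, called 0 of the 41 members that passed the filter on low counts, where it called 0.0816% of all genes (0.0627% higher and 0.0188% lower). At an unadjusted p under 0.05 there were 9 members higher with AL/NP (22.0% of 41, against 9.37% of all tested genes) and 3 lower (7.32%, against 10.3%), where 19.6% of all genes passed in either direction, so the share of lower members was near the background. DESeq2 called 5 members, 3 higher (C3, Cfb and Serping1) and 2 lower (F11 and C1s1), where it called 5.17% of all genes (2.65% higher and 2.52% lower), and limma-voom called 0, where it called 0.0502%. The groups did not overlap in 13 members that were higher (31.7%, against 14.5% of all tested genes) and in 4 that were lower (9.76%, against 15%), together 41.5% of the members and 29.5% of all tested genes. A log2 fold change above 0 was found in 30 members (73.2%, against 50%), and the median was 0.22 where the median of all tested genes was -0.00025. With library totals as the only scaling the median of all tested genes moved to 0.13 and that of the members to 0.32, and 38 of 41 members were above 0, all but C1s1, Masp2 and F11. The number of members above 0 was 26 without control replicate 2 and 35 without control replicate 3. Fold changes ran from -1.0 for F11 to 1.0 for Cfb on the log2 scale.

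**Figure D1:**
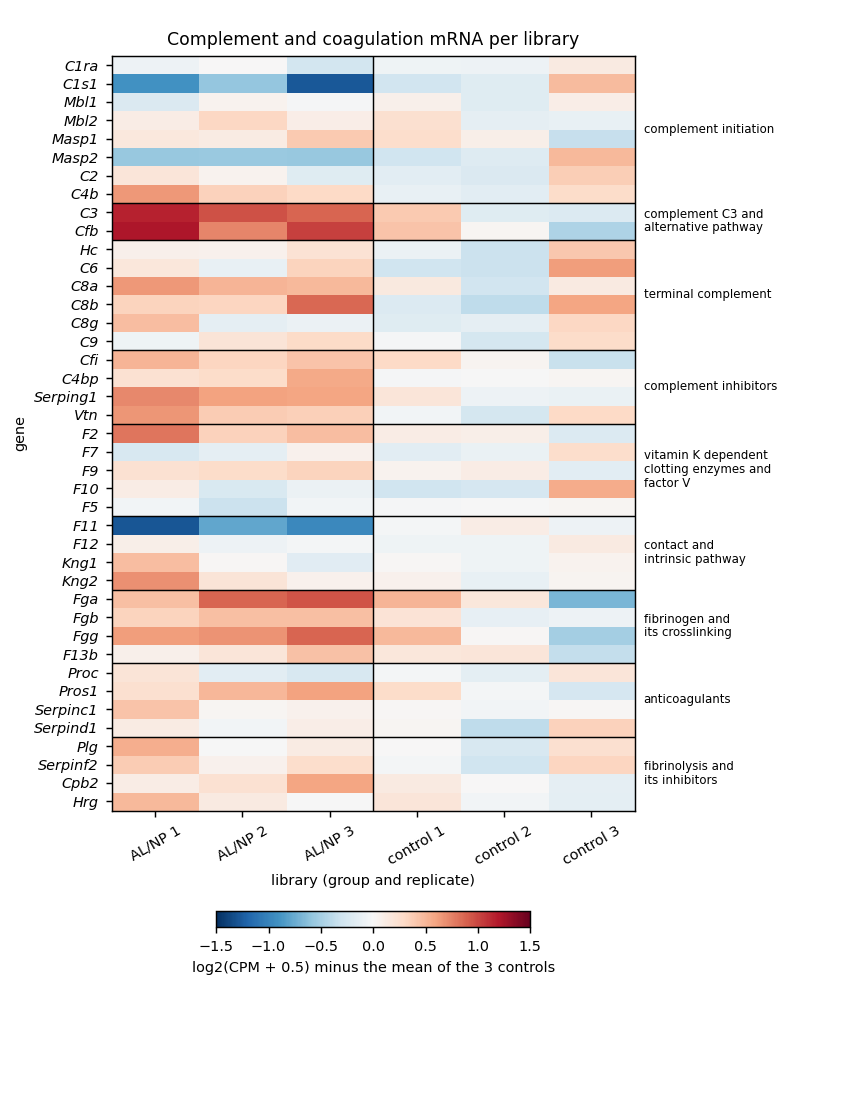
Level of each of the 41 tested members (rows, grouped by role) in each of the 6 libraries (columns), as log2(CPM + 0.5) minus the mean of the 3 controls; red is higher and blue lower than that mean. C3, Cfb and Serping1 are red in all 3 AL/NP libraries, F11, C1s1 and Masp2 are blue in all 3, and control replicate 3 is blue for Fga, Fgg and Cfb.

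**Figure D2:**
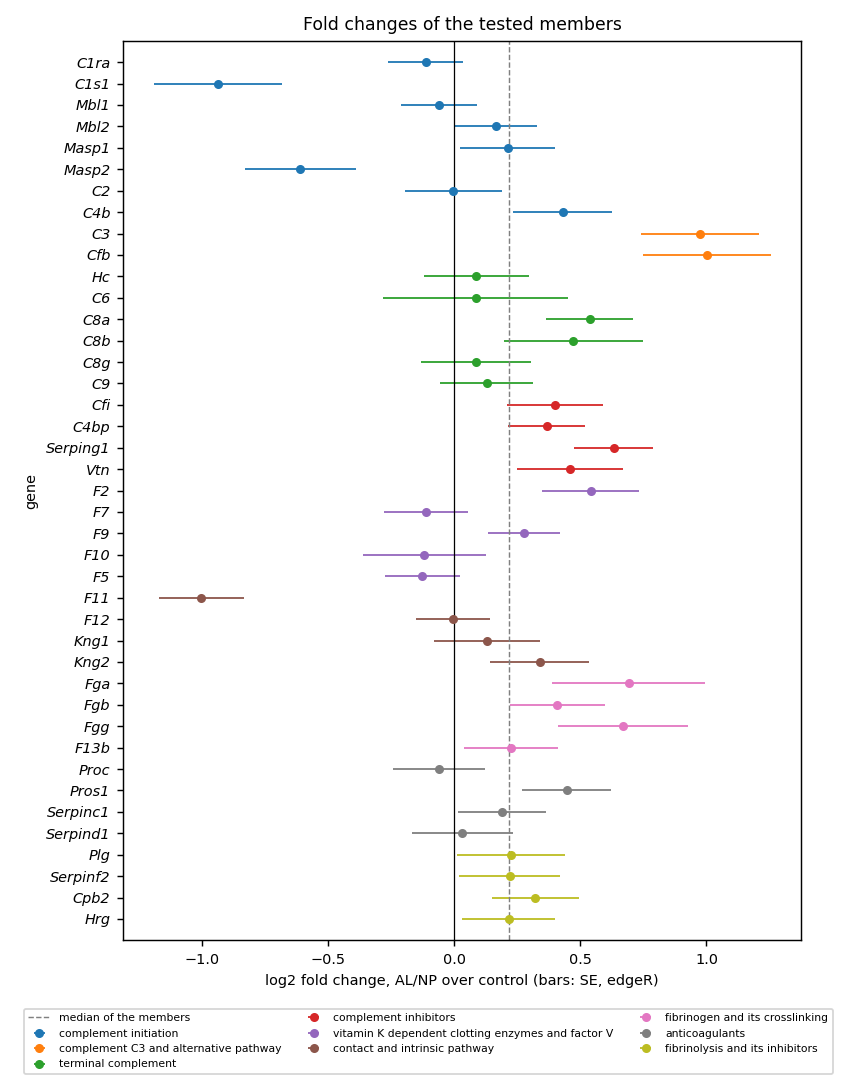
Log2 fold change of AL/NP over control for the 41 tested members (points, coloured by role, with bars of 1 standard error from edgeR); the dashed line is the median of the members, 0.22. Most points lie to the right of 0, whereas F11, C1s1 and Masp2 lie farthest to the left.

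Compared per length of exon, the most abundant members in controls were Fgb at 639 CPM per kb, Vtn at 638, C3 at 597, Kng1 at 500.2, Fgg at 482 and Fga at 466. The length is that of all annotated exons together, such as 9833 bases for Masp1, and can exceed the transcripts counted. This order is therefore approximate. Plg, the precursor of plasmin, followed at 217 CPM per kb and Serpinf2, the plasmin inhibitor, at 196. At the low end stood C2 at 5.64, Cfb at 2.48, Masp1 at 1.34 and C6 at 0.619 CPM per kb. Cfb and C2 overlap Gm20547, a gene on the same strand, over 2246 of 2825 and 1656 of 3872 exonic bases. Gm20547 itself had 1 count over all libraries. How reads that fall in both genes were counted is not given in the sources used here, so the levels of Cfb and C2 are uncertain. Cfd, the protease that activates factor B and is made mainly by fat cells, had 1, 1 and 0 counts in AL/NP replicates 1 to 3 and 0, 0 and 2 in the controls; both groups were at or under 3 counts, so no difference was detectable at this depth, and it was not tested. The plot of members among all genes shows most of them to the right of its centre, below the level of Alb.

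**Figure D3:**
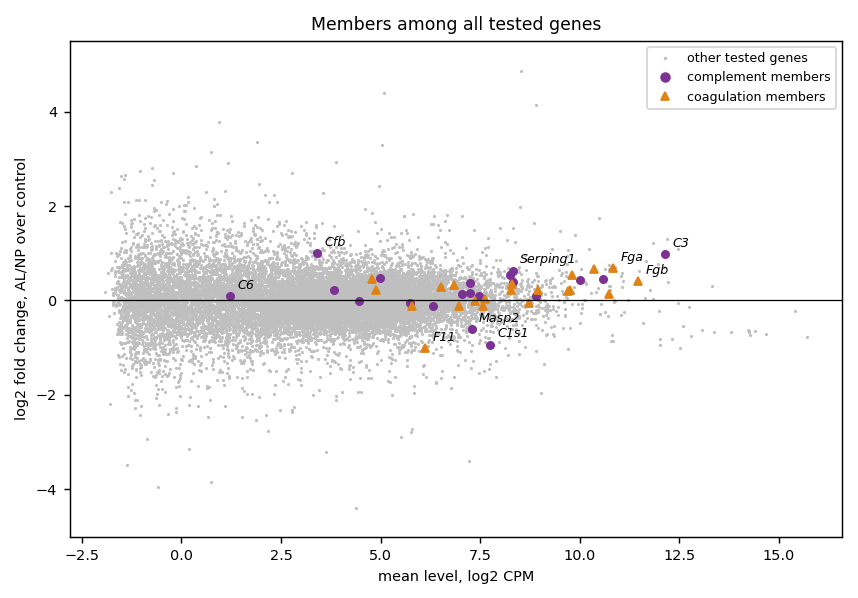
Log2 fold change of AL/NP over control (vertical axis) against mean level in log2 CPM (horizontal axis) for all 15939 tested genes in grey, complement members as purple circles and coagulation members as orange triangles. C3 lies far to the right at 0.97, Cfb lies at 1.0 left of the other labelled genes but C6, and F11 at -1.0. The level of Cfb is uncertain because it overlaps Gm20547 on the same strand.

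The alternative pathway and C3 showed the largest differences upward. C3 (chromosome 17, 57203970 to 57228136, protein coding), the component on which all pathways meet, measured 6728, 5835 and 5540.0 CPM in AL/NP replicates 1 to 3 and 3944, 2653 and 2614 CPM in the controls. All AL/NP libraries were above all controls, and control replicate 1 was the highest control. The means were 3070.1 ± 757 CPM (SD, n = 3) in controls and 6035 ± 619 CPM with AL/NP, a log2 fold change of 0.97 (SE 0.23, adjusted p = 0.124, edgeR; 0.00126, DESeq2). Cfb (chromosome 17, 34856374 to 34862518), which encodes factor B, the protease of the alternative C3 convertase, measured 16.3, 11.6 and 14.3 CPM with AL/NP and 9.33, 6.93 and 4.78 CPM in controls. Here too no control reached an AL/NP library, at a log2 fold change of 1.0 (SE 0.25, adjusted p = 0.129, edgeR; 0.0156, DESeq2). Leaving out 1 library at a time gave between 0.87 and 1.2 for C3 and between 0.79 and 1.3 for Cfb, the lowest being without control replicate 3. The counts of Cfb are uncertain because of its overlap with Gm20547, described above. The ratio of C3 to Hc counts, that is of C3 to C5 message in the same library, was 13.9, 12.2 and 10.5 with AL/NP and 9.19, 7.22 and 4.30 in controls. That of C3 to C4b was 4.93, 5.27 and 5.18 against 4.91, 3.41 and 2.49, where AL/NP replicate 1 and control replicate 1 lay close together.

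The promoter of C3 is shown because C3 had the smallest p among the members that were higher. The 250 bases before its RefSeq start (GRCm38.p6, chr17:57228137-57228386, minus strand) are printed 5′ to 3′, and capitals mark a match to the C/EBP motif TTGCNNAA on either strand, 45 bases before the start. C/EBP factors are liver regulators of acute phase genes.
C3: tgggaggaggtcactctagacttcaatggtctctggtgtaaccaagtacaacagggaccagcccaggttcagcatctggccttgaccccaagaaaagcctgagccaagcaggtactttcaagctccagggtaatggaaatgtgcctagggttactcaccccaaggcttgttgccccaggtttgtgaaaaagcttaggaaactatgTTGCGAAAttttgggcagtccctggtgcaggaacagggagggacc
Of all 32851 promoters in the table, 9.56% held that motif in the same window, and 10 of the 34 of 43 listed members with a promoter there did (29.4%). Members were counted by gene, with a match in any of their promoters (36 for the 34 genes), and the background by promoter. These shares are therefore not the same measure, and the 34 include Klkb1. No match to a form of the NF-kB motif (3 G, any 2 bases, 3 T and 2 C, on either strand) was found in any of those 34, against 1.41% of all promoters, and the TATA box letters TATAAA on the gene's strand were in 2 (5.88%, against 7.59%). A match describes letters only and shows no binding.

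Among the 8 genes that start the classical and lectin pathways, 3 were higher and 5 lower, and none passed the edgeR test. C1s1 (chromosome 6, 124530345 to 124542359), the protease subunit of C1 that cuts C4 and C2, measured 147, 184 and 114 CPM in AL/NP replicates 1 to 3 and 225, 244 and 382 CPM in the controls, without overlap. Its log2 fold change was -0.94 (SE 0.25, adjusted p = 0.144, edgeR; 0.0176, DESeq2), and -0.66 without control replicate 3, the highest library. C1ra, which encodes the partner protease that activates C1s and lies next to C1s1, measured 78.6, 82.8 and 68.2 CPM with AL/NP and 78.8, 78.6 and 90.9 CPM in controls, and these ranges overlapped (log2 fold change -0.11, SE 0.15). The count ratio of C1s1 to C1ra was 1.87, 2.22 and 1.68 with AL/NP and 2.86, 3.11 and 4.21 in controls, so the groups did not overlap in this ratio. With library totals as the only scaling C1ra was at 0.028. C1s1 and C1ra have close relatives, C1s2 and C1rb, with 15.5 and 54.1 counts per 100 of the member, so how reads were divided within each pair is uncertain.

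Masp2 (chromosome 4, 148602554 to 148615499), the protease of the lectin pathway that cuts C4, measured 123, 124 and 123 CPM with AL/NP, within a narrow range, and 148, 160.1 and 257 CPM in controls. The groups did not overlap, but the difference rested largely on control replicate 3: the log2 fold change was -0.61 (SE 0.22, adjusted p = 0.198, edgeR) and -0.32 without that library. Masp2 overlaps Tardbp on the opposite strand over 1817 exonic bases, and Tardbp had 63.8 counts per 100 of Masp2; the strand setting of the counting is not given in the sources used here, so its counts are uncertain. The lectins and Masp1 had overlapping groups, with log2 fold changes of -0.060 for Mbl1, 0.17 for Mbl2 and 0.21 for Masp1. Without control replicate 3 Masp1 was at 0.052. C4b, whose product is cut by C1s and MASP-2, measured 1365, 1106 and 1070.5 CPM with AL/NP and 803, 778 and 1048 CPM in controls, where the lowest AL/NP library was just above the highest control (log2 fold change 0.43, SE 0.20, adjusted p = 0.266, edgeR). Its relative C4a had 19.8 counts per 100 of C4b, so that split is uncertain as well. C2, the next protease in line, was at -0.0026, with a sign that changed in 8 of 16 alternative settings. Besides its overlap with Gm20547, given above, C2 overlaps Zbtb12 on the opposite strand over 161 exonic bases. Zbtb12 had 16.7 counts per 100 of C2, so the counts of C2 are uncertain too.

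The 6 members of the set that belong to the terminal pathway were all on the higher side, at log2 fold changes between 0.086 for C8g and 0.54 for C8a, with 1 of 6 at an unadjusted p under 0.05 (edgeR). C8a (chromosome 4, 104815679 to 104876398), the subunit of C8 that inserts into the membrane, measured 389, 352 and 346 CPM with AL/NP and 273, 203 and 272 CPM in controls, without overlap. Its log2 fold change was 0.54 (SE 0.17, adjusted p = 0.172, edgeR; 0.0613, DESeq2). C8b, its neighbour on the chromosome, was at 0.47 (SE 0.27), but its groups overlapped through control replicate 3, and it was at 0.84 without that library. Hc, which encodes C5, the source of the attractant C5a, measured 484, 478 and 530.1 CPM with AL/NP and 429, 367 and 608 CPM in controls. The controls of Hc spread on both sides of the AL/NP libraries (log2 fold change 0.088, SE 0.21); without control replicate 3 it was 0.32 and without control replicate 2 it was -0.067. C9, the pore-forming unit, was at 0.13 (SE 0.18) and C6 at 0.086 (SE 0.37), C6 with only 55 to 112 counts per library. Without control replicate 3 C6 was at 0.57. C7, a part of the membrane attack complex that was listed with the receptors and regulators and not among the members, measured 1.46, 0.963 and 1.13 CPM with AL/NP and 0.287, 0.442 and 0.466 CPM in controls, from 10 to 42 counts per library. Its groups did not overlap, at a log2 fold change of 1.56 (SE 0.36, adjusted p = 0.121, edgeR; 0.0217, DESeq2).

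All 4 complement inhibitors were higher with AL/NP and none of them overlapped between the groups, where 14.5% of all tested genes were higher without overlap. Serping1 (chromosome 2, 84765387 to 84775444) encodes C1 inhibitor, which blocks C1r, C1s, the MASP proteases, factor XII and plasma kallikrein. It measured 414, 380.3 and 378 CPM with AL/NP and 284, 238 and 235 CPM in controls. Every AL/NP library of Serping1 lay well above the highest control, at a log2 fold change of 0.63 (SE 0.16, adjusted p = 0.126, edgeR; 0.00869, DESeq2), and leaving out 1 library at a time kept it between 0.58 and 0.73. C4bp, a cofactor in the breakdown of C4b protein, measured 157 to 198 CPM against 132 to 137 CPM (log2 fold change 0.37, SE 0.15). Vtn, vitronectin, which keeps the attack complex out of membranes and binds the plasminogen activator inhibitor, measured 1641 to 2030.5 CPM against 1067 to 1577 CPM (0.46, SE 0.21). Cfi, the protease that inactivates C3b, measured 340.5 to 387 CPM against 216 to 334 CPM (0.40, SE 0.19, and 0.25 without control replicate 3). The adjusted p-values of C4bp, Vtn and Cfi were 0.239, 0.264 and 0.279 (edgeR). C1s1 message and the message of its inhibitor thus differed in opposite directions, lower for the protease and higher for the inhibitor.

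Fibrinogen, the substrate of thrombin, is built from equal numbers of alpha, beta and gamma chains, and their genes Fga, Fgb and Fgg lie side by side on chromosome 3. Fga (83026076 to 83033627) measured 1815, 2427 and 2554 CPM in AL/NP replicates 1 to 3 and 1889, 1495 and 824 CPM in the controls, and AL/NP replicate 1 lay just below control replicate 1. Fgb (83040141 to 83049863) measured 3062, 3317 and 3317 CPM with AL/NP and 2787, 2216 and 2303 CPM in controls, without overlap. Fgg (83007724 to 83015049) measured 1492, 1550.3 and 1776 CPM with AL/NP and 1364, 985 and 680.0 CPM in controls, also without overlap. In each chain control replicate 1 was the highest control. The log2 fold change was 0.69 for Fga (SE 0.30, adjusted p = 0.254, edgeR), 0.41 for Fgb (SE 0.19, 0.269) and 0.67 for Fgg (SE 0.26, 0.213). Without control replicate 3 the values were 0.42, 0.37 and 0.45, and without control replicate 1 they were 0.97, 0.52 and 0.95. Per length of exon the 3 chains stood close to each other in 5 libraries, where the ratio of Fgb to Fga was between 1.03 and 1.33. In control replicate 3 it was 2.21, where Fga stood at 274 and Fgg at 325 CPM per kb while Fgb stood at 604. F13b, the carrier subunit of the factor that crosslinks fibrin, was at 0.23 (SE 0.19) with overlapping groups, and at 0.066 without control replicate 3.

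**Figure D4:**
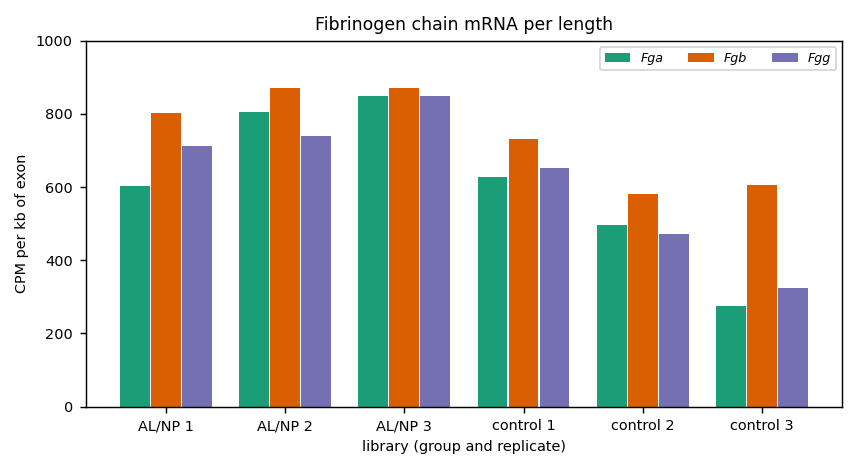
Fibrinogen chain mRNA in CPM per kb of exon (vertical axis, from 0) for Fga, Fgb and Fgg in each of the 6 libraries (horizontal axis). The 3 bars are of similar height in all libraries but control replicate 3, where Fga, at 274, and Fgg, at 325, lie well below Fgb, at 604.

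The promoters of the 3 chains are shown because their messages were higher together but differed in control replicate 3. Each is the 250 bases before the RefSeq start in GRCm38.p6: chr3:83025903-83026152 on the plus strand for Fga, chr3:83049864-83050113 on the minus strand for Fgb and chr3:83007474-83007723 on the plus strand for Fgg. Capitals mark matches, on either strand, to TTCNNNGAA (STAT factors, which carry interleukin-6 signals), TTGCNNAA (C/EBP) and CAAAGNNCA (HNF4); HNF4 is a hepatocyte transcription factor.
Fga: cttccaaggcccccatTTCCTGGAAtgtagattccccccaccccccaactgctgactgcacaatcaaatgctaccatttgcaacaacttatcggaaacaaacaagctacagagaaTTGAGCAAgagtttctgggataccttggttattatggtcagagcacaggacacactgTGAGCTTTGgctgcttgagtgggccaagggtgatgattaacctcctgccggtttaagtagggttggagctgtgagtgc
Fgb: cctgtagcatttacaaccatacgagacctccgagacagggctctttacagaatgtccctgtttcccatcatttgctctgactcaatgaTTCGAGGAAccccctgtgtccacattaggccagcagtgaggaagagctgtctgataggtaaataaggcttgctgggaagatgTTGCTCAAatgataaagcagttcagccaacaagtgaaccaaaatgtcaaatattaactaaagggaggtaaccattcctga
Fgg: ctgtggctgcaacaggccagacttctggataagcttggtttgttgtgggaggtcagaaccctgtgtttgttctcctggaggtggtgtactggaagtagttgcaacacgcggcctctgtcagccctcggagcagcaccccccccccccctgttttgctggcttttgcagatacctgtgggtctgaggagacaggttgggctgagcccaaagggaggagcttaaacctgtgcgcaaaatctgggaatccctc
Fga held a STAT match 234 bases before its start, a C/EBP match at 135 and an HNF4 match at 78. Fgb held a STAT match at 162 and a C/EBP match at 80, and the Fgg window held none of these letters. Over the 34 members with a promoter in the table, 6 held the STAT motif (17.6%, against 7.02% of all promoters) and 6 the HNF4 motif (17.6%, against 5.49%). Here too members were counted by gene and the background by promoter. Besides Fga and Fgb, the STAT motif lay in the windows of C8a, F9, Masp2 and Pros1, genes whose differences went in either direction.

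F11 had the smallest p of all members and was the most clearly separated gene of the contact and intrinsic pathway. It (chromosome 8, 45241174 to 45262031) encodes factor XI, which thrombin and factor XII activate and which in turn activates factor IX. F11 measured 37.9, 54.2 and 47.3 CPM in AL/NP replicates 1 to 3 and 91.3, 100.2 and 87.9 CPM in the controls. The highest AL/NP library was far below the lowest control. The means were 93.2 ± 6.37 CPM (SD, n = 3) in controls and 46.5 ± 8.15 CPM with AL/NP, a log2 fold change of -1.0 (SE 0.17, adjusted p = 0.0783, edgeR; 7.74e-05, DESeq2). Leaving out any 1 library kept the value between -1.13 and -0.88, so no single library carried it. F9, the substrate of factor XIa, was instead on the higher side without overlap, with 96.9, 100.1 and 104 CPM against 85.5, 89.4 and 73.9 CPM (log2 fold change 0.28, SE 0.14, adjusted p = 0.305, edgeR). The count ratio of F11 to F9 was 0.391, 0.541 and 0.453 with AL/NP and 1.07, 1.12 and 1.19 in controls.

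The F11 promoter is shown as that of the member with the smallest p. Its 250 bases before the RefSeq start (GRCm38.p6, chr8:45262032-45262281, minus strand) hold 1 C/EBP match, 17 bases before the start, in capitals, and no match to the STAT, HNF4 or NF-kB letters.
F11: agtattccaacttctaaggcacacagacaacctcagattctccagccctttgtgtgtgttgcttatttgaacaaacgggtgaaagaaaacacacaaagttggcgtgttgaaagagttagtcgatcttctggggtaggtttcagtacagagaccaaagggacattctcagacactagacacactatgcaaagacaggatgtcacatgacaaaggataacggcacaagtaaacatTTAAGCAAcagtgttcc
The other tested genes of the contact system showed no such difference: F12, factor XII, was at -0.0048 (SE 0.15) and Kng1, high molecular weight kininogen, at 0.13 (SE 0.21). Kng2, a close relative of Kng1, was at 0.34 (SE 0.19). Kng1 and Kng2 both were highest in AL/NP replicate 1, their groups overlapped, and the split of reads between them is uncertain.

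Of the clotting enzymes that need vitamin K, F2 had the smallest p. F2 (chromosome 2, 91625320 to 91636414), which encodes prothrombin, measured 1272, 931 and 1005 CPM with AL/NP and 791, 780.2 and 634 CPM in controls, without overlap. Its log2 fold change was 0.54 (SE 0.19, adjusted p = 0.196, edgeR; 0.0885, DESeq2), and 0.40 without AL/NP replicate 1, the highest library. F7, the partner of tissue factor, measured 47.9, 51.5 and 59.3 CPM with AL/NP and 50.8, 52.7 and 68.0 CPM in controls, and its groups overlapped (log2 fold change -0.11, SE 0.17). F10, which forms prothrombinase with factor V, was at -0.12 (SE 0.24) and at 0.21 without control replicate 3. F5, that cofactor, measured 127, 104 and 127 CPM against 129, 129.9 and 133 CPM; the groups were apart only by the small gap between 127 and 129 CPM (log2 fold change -0.13, SE 0.15). F7, F10 and F5 were at 0.053, 0.053 and 0.0067 with library totals as the only scaling, so their direction depends on it.

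**Figure D5:**
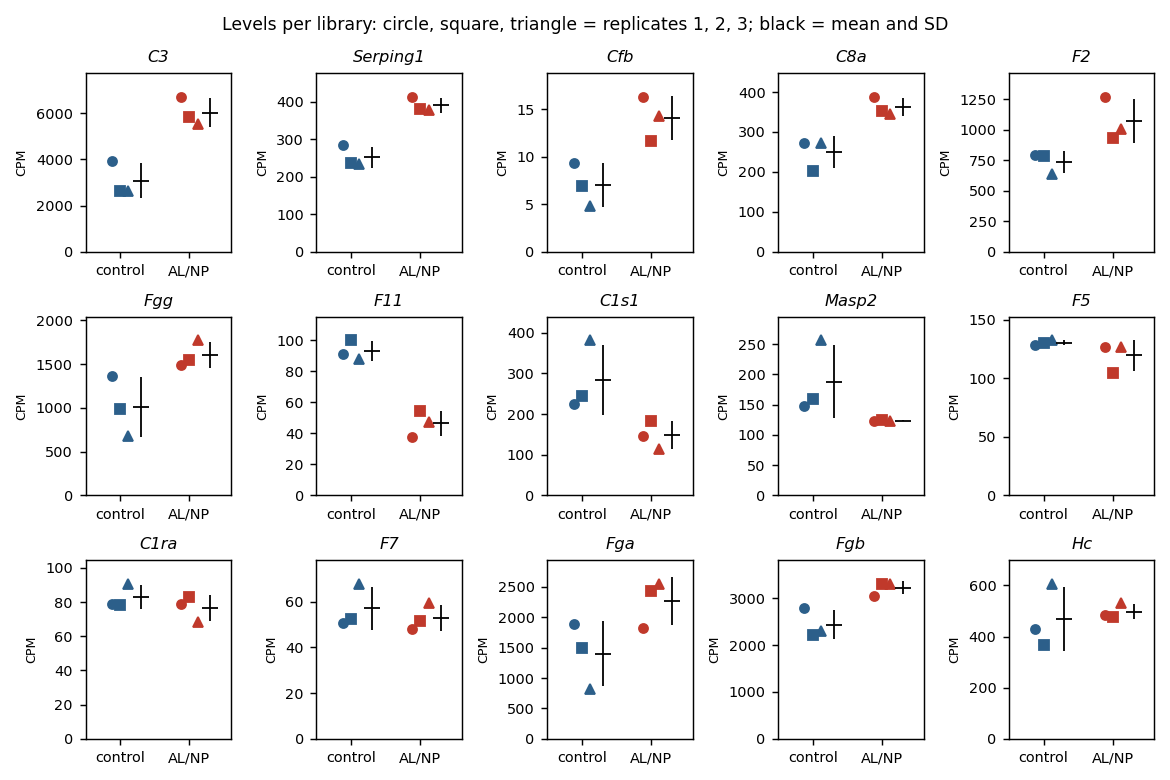
Level in CPM (vertical axes, from 0) of 15 members in controls (blue) and AL/NP (red); circles, squares and triangles are replicates 1, 2 and 3, and black bars are the mean and SD of 3 libraries. The groups stand apart for C3, from 2614 to 3944 CPM against 5540 to 6728 CPM, and for F11, from 87.9 to 100.2 CPM against 37.9 to 54.2 CPM.

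The anticoagulants showed small differences, of which Pros1 was the largest. Pros1, protein S, the cofactor of activated protein C, measured 27.5, 32.8 and 35.4 CPM with AL/NP and 28.2, 22.6 and 19.4 CPM in controls, with AL/NP replicate 1 below control replicate 1 (log2 fold change 0.45, SE 0.18, adjusted p = 0.224, edgeR). Serpinc1, antithrombin, was at 0.19 (SE 0.18), Serpind1, heparin cofactor II, at 0.032 (SE 0.20) and Proc, protein C, at -0.061 (SE 0.18). The groups of Proc, Serpind1 and Pros1 overlapped, and those of Serpinc1 were apart only between 797 CPM in the highest control and 805 CPM in the lowest AL/NP library. In the fibrinolysis group, all 4 genes overlapped and all were slightly on the higher side, from 0.22 for Hrg to 0.32 for Cpb2. Plg, plasminogen, measured 1162, 791 and 865 CPM with AL/NP and 797, 671 and 943 CPM in controls, and Serpinf2, antiplasmin, measured 584, 470.1 and 539 CPM and 440.5, 364 and 562 CPM. Cpb2 encodes the carboxypeptidase that protects fibrin from plasmin, and Hrg encodes histidine-rich glycoprotein, which binds plasminogen; their SEs were 0.17 and 0.18.

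Neighbouring members were compared by their position in the genome. With gaps of up to 200 kb, 15 of the 42 members formed 6 clusters of 2 or 3 genes. The fibrinogen genes, the C8a and C8b pair, the F7 and F10 pair and the cluster of Hrg, Kng2 and Kng1 on chromosome 16 each had log2 fold changes of the same sign within the cluster. The neighbours C1ra and C1s1 also shared a sign, at -0.11 and -0.94. In the cluster of C4b, Cfb and C2 on chromosome 17 the values were 0.43, 1.0 and -0.0026. Since 73.2% of the tested members were above 0, shared signs are frequent in any grouping of them. The libraries also differed in which members they led: AL/NP replicate 1 held the highest level of 16 of the 41 tested members, control replicate 3 of 12 and AL/NP replicate 3 of 10. Control replicate 2 held the lowest level of 15 and control replicate 3 of 13, so control replicate 3 was at the top for some members and at the bottom for others.

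Other genes of these pathways were taken from lists chosen by function, to be read against all tested genes, of which 9.37% were higher and 10.3% lower at an unadjusted p under 0.05 (edgeR) and 2.65% and 2.52% were called higher and lower by DESeq2. Of 26 complement receptors and regulators, 25 were tested; edgeR called 0, 8 were higher and 0 lower at an unadjusted p under 0.05, and DESeq2 called 4, all higher, and limma-voom 0 in this and each of the lists that follow. The smallest p-values were those of Itgb2 and Itgam, the chains of complement receptor CR3 on myeloid cells, at 1.33 and 1.35 (adjusted p = 0.104 and 0.121, edgeR). On the lower side they were Cd59a, which blocks the attack complex on cells, at -0.45 and Cd46, a cofactor for factor I, at -0.67, with unadjusted edgeR p-values of 0.0968 and 0.162. Of 27 further genes of coagulation and fibrinolysis, 24 were tested, with 0 called by edgeR, 5 higher and 0 lower at an unadjusted p under 0.05, and 4 called by DESeq2, all higher. F13a1, the catalytic subunit of factor XIII, which monocytes, macrophages and platelets carry, measured 2.22, 2.64 and 3.31 CPM with AL/NP and 0.661, 0.829 and 0.528 CPM in controls (log2 fold change 2.01, SE 0.31, adjusted p = 0.0749, edgeR). Thbd, thrombomodulin, which turns thrombin to the activation of protein C, measured 6.01, 7.71 and 10.7 CPM and 3.47, 2.76 and 2.83 CPM (1.43, SE 0.25, adjusted p = 0.0901, edgeR). The lower side was led by Proz, protein Z, at -0.73 and F3, tissue factor, at -0.41 (unadjusted p = 0.0796 and 0.137, edgeR).

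Among 20 other plasma proteins secreted by hepatocytes, all tested, edgeR called 0, with 3 higher and 2 lower at an unadjusted p under 0.05, and DESeq2 called 3 higher and 1 lower. Their median log2 fold change was 0.045, against 0.22 for the members, and whether these lists differ was not tested. Hpx, hemopexin, at 1.10 and Itih4, an acute phase protein, at 1.10 led the higher side (adjusted p = 0.0970 and 0.108, edgeR), while Ttr, transthyretin, was at -0.82 and Serpina6, corticosteroid-binding globulin, at -2.01 (adjusted p = 0.140 and 0.223). Serpina6 measured 144 CPM in control replicate 3 and 10.9 to 21.9 CPM in the other 5 libraries. Of 16 genes known to regulate plasma protein genes, 15 were tested and 0 called by edgeR, with 3 higher and 1 lower at an unadjusted p under 0.05, and DESeq2 called 1 higher and 1 lower. Osmr, the receptor of oncostatin M, measured 23.7, 18.2 and 17.4 CPM with AL/NP and 11.3, 10.2 and 11.6 CPM in controls, without overlap (0.84, SE 0.17, adjusted p = 0.0970, edgeR), and Nfkbia, an inhibitor of NF-kB, was at 0.44 (adjusted p = 0.181). Nr0b2, a repressor induced by bile acids, was at -1.03 (adjusted p = 0.166, edgeR), and Il6 had too few counts to test.

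Markers of several cell types also stood at different levels in the groups, but edgeR called 0 in each of these lists. Of all tested genes, 9.37% were higher at an unadjusted p under 0.05 (edgeR) and 50% had a log2 fold change above 0. The summed level of 8 macrophage markers ranged from 194 to 409 CPM with AL/NP and 125 to 209 CPM in controls, overlapping narrowly. Of these markers 7 of 8 were higher and 5 were at an unadjusted p under 0.05. Clec4f was the lower marker, at -0.20, and Timd4 was at 0.16 with overlapping groups. The summed level of 6 neutrophil markers ranged from 34.4 to 73.1 CPM with AL/NP and 18.7 to 33.5 CPM in controls. All 5 of 5 tested neutrophil markers were higher and 4 were at an unadjusted p under 0.05. Ly6g, a defining marker, was at 0 in AL/NP replicate 1 and in control replicates 1 and 2. The 6 platelet and megakaryocyte markers summed to 17.0 to 25.4 CPM with AL/NP and 10.3 to 14.2 CPM in controls, with 4 of 4 tested markers higher and none at 0 in any library. Of the tested markers only Itgb3 was without overlap, and the groups of Pf4, Ppbp and Itga2b overlapped. Itga2b made up 18.4 of the 25.4 CPM in AL/NP replicate 1. The 8 hepatocyte markers summed to 47140.0 to 54723 CPM with AL/NP and 57682 to 75756 CPM in controls, with 6 of 8 lower; most of this sum is Alb. The summed levels of stellate cell, endothelial, cholangiocyte and lymphocyte markers overlapped between the groups. Cd3e, a T cell marker, stood at 16.6 CPM in AL/NP replicate 1 and between 0.497 and 2.67 CPM in the remaining libraries. Macrophages are known to make C3 and factor B as well as C1q, and the part of these cells in the levels of C3, Cfb and Serping1 was not tested. C1qa, C1qb and C1qc, which macrophages make, were at 1.01, 1.07 and 1.09 (adjusted p = 0.200, 0.201 and 0.203, edgeR). Their groups overlapped, with AL/NP replicate 1 below control replicate 3 for each gene. AL/NP replicate 3 was the highest library for each, at 87.4 CPM for C1qa, against 34.5 and 43.0 CPM in AL/NP replicates 1 and 2.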

How the data were processed

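Bulk poly(A) RNA sequencing libraries of fresh frozen liver came from a stranded TruSeq kit and paired-end NovaSeq reads, per the labels' protocols. The authors deposited raw whole-number counts per Ensembl gene in 1 table of 6 libraries, 3 labelled AL/NP and 3 control; no normalization is visible in the values. The submitters' processing notes name the GRCm38 build, STAR 2.6.1a, featureCounts and DESeq2 1.26.0. Strand setting, annotation release and handling of reads with several matches are not given in the sources used here. Symbols matched 40254 of 41388 identifiers, and positions, exon lengths (union of exons) and overlaps come from GENCODE M21 of GRCm38. Promoters are those of RefSeq, GRCm38.p6.

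Groups were compared with edgeR 4.0.16 in R 4.3.3 (TMM, filterByExpr with a minimum count of 10, robust quasi-likelihood fit, Benjamini-Hochberg over 15939 genes, threshold 0.05). The SE was taken from the size of a fold change and its F statistic, and the biological coefficient of variation was 23.3%. A level of 3 counts was 0.0826 to 0.104 CPM, which covers counting error only. The fit was tested on simulated data with known changes, of which it recovered a minority of those of 2-fold and nearly all of those of 4-fold. That recovery does not carry over to each real gene. F13a1, at a log2 fold change of 2.01, was not called (adjusted p = 0.0749, edgeR). A member that was not called may thus still differ by 2-fold or more. No 2 libraries were duplicates: the closest pair differed by a chi-square of 30.6 per degree of freedom. Members with the 6 smallest p-values in each direction, the fibrinogen chains, C3, Hc, F2 and the most abundant member per length are described by library, and in each list the 2 genes with the smallest p in each direction. Genes named beyond that rule, and the printed promoters and motifs, were chosen after values were seen. The members and lists were chosen with earlier results of these data known. In the list of plasma proteins the entry Tf was matched to Trf as a synonym. One gene that the rule names in the list of regulators is not reported here. Alternatives were DESeq2 size factors, library totals, 2 other filters, a replicate block, 6 fits with 1 library left out, the fit without robust estimation, limma-voom (limma 3.58.1), DESeq2 1.42.0, and leaving out mitochondrially encoded genes or the 10 most abundant genes.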

Additional observations from a re-analysis of the deposited data

How the results depend on the processing

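The count of members called at an adjusted p of 0.05 was 0 in the reported edgeR fit and in 14 of 16 alternatives. It was 4 without a filter on low counts (C3 and Cfb higher, F11 and C1s1 lower) and 5 with DESeq2, which added Serping1; over all genes those settings called 747 and 846 genes against 13, and the cause was not tested; library totals, a minimum of 50 counts, the fit that was not robust and 4 of the fits with 1 library left out called 0 genes in all. The count of members higher at an unadjusted p under 0.05, 9 as reported, ranged from 4 (without control replicate 2) to 11 (without control replicate 3) with 1 library left out, and was 5 both for AL/NP replicate 2 and for AL/NP replicate 3 left out; the count of lower members ranged from 2 to 3 in all 16 alternatives. The median log2 fold change of the members was 0.15 to 0.30 with 1 library left out and 0.32 with library totals, which moved the median of all genes to 0.13. With library totals, F5 was at 0.0067, C1ra at 0.028 and F7 at 0.053, against values below 0 as reported; with 1 library left out F7 ran from -0.20 to 0.031 (without control replicate 3) and Hc from -0.067 (without control replicate 2) to 0.32. Of the values of 15 named members under 16 alternatives, 226 kept direction and side of the threshold, 9 passed it and 5 changed sign. Fitting the replicate number as a block left 0 members called, with 7 higher and 3 lower at an unadjusted p under 0.05, and 23 genes called in all. The labels' replicate numbers gave no clear sign of pairing. Same-numbered libraries had correlations of deviations of -0.055, 0.043 and 0.075, and not every library correlated best with its own number. With 3 libraries per group, this check cannot exclude pairing. The genes at an unadjusted p under 0.05 over the 4 pathway lists numbered 22 as reported and 17 to 29 in the alternatives. Depth limits Cfd most, with 0 to 2 counts per library, and among the tested members C6, with 55 to 112.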
